A study of Homo sapiens
Mus musculus and Mus musculus and Homo sapiens with 16 samples.

Results

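TXNIP, ARRDC4 and ARRDC3 encode alpha-arrestins, and MLXIP encodes MondoA, the transcription factor that carries glucose signals to TXNIP and ARRDC4. These 4 human genes and their mouse counterparts Txnip, Arrdc4, Arrdc3 and Mlxip are described here, 8 of the 107722 genes counted in the 2 species. The genes were picked by name after values of these libraries had been seen, and which of the comparisons led to that choice is not recorded. Their levels and fold changes are therefore given as a description without p-values, and no call is made for them.

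The study looked for signaling pathways that mantle cell lymphoma cells need in order to adhere to stroma, and compared the lines JeKo-1 and REC-1. Of these lines, only REC-1 is described here. REC-1 is a human mantle cell lymphoma line and MS-5 is a mouse bone marrow stromal line, and both were grown in alpha-MEM-glutamax with 10% heat-inactivated FBS, 2 mM sodium pyruvate, penicillin and streptomycin. The study's methods, however, name RPMI-glutamax for maintaining the lymphoma lines, with cocultures kept under the MS-5 conditions. The effect of any change of medium was not tested. MS-5 cells were seeded at 500000 per dish 24 h ahead, 5000000 REC-1 cells were added, and polyA RNA was sequenced after 24 h. There were 4 libraries in each of 4 groups. Sep libraries came from REC-1 cells cultured alone, Susp libraries from the REC-1 cells that stayed in suspension above MS-5 cells, and Adh libraries from the adherent layer, in which REC-1 and MS-5 RNA were sequenced together and divided by species afterwards. MS-5 libraries came from MS-5 cells cultured alone. For Sep and MS-5 alone the labels give 24 h of incubation, but no number of cells per dish and no time of seeding ahead. REC-1 values thus come from Sep, Susp and Adh, and MS-5 values from MS-5 alone and Adh. The labels name no engineered allele and no drug. Each species is represented by 1 cell line. Adherent REC-1 and MS-5 cells were not separated before RNA extraction, and the study describes its replicates as independent experiments.

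Total counts were 7758979 to 13241751 in the human part of Adh, 9325412 to 12597891 in Sep and 15000927 to 21467832 in Susp, against 29495404 to 34615602 in the mouse part of Adh and 10097555 to 17397651 in MS-5 alone. Human counts made up 18.31 to 28.22% of each Adh library. The human values carried all 7 B cell markers, whose summed level was 4833 to 6292 CPM (counts per 1000000 counts of that species in the library) over the 12 libraries, while T cell and myeloid markers summed to at most 8.73 and 2.20 CPM. The mouse values carried all 6 stromal markers, at 8037 to 9268 CPM in sum. Haematopoietic, endothelial and adipocyte markers summed to at most 1.59, 0.177 and 3.78 CPM. In the 4 Adh libraries together, the human B cell gene MS4A1 had 48495 human and 2 mouse counts, and Col1a1 had 170277 mouse counts against 8 for its human counterpart. Replicate 2 of Susp stood apart, with a mean Pearson r of 0.957 of log2 CPM with the other Susp libraries over 8490 genes, where the other REC-1 libraries had 0.977 to 0.99 within their groups. Some of the values that rest on it are also given without it.

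The alpha-arrestins are adaptor proteins that bring membrane proteins to NEDD4 family ubiquitin ligases. TXNIP binds and inhibits thioredoxin and lowers glucose uptake by promoting removal of glucose transporters from the cell surface. When glucose is taken up and phosphorylated, MondoA moves with its partner MLX to the nucleus and binds carbohydrate response elements, which are paired E boxes, in the promoters of TXNIP and ARRDC4. ARRDC3 is a close relative that acts on adrenergic receptors and integrins. TXNIP is also repressed by MYC and is a known target of FOXO factors and of the glucocorticoid receptor.

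The 300 bases upstream of the annotated start of TXNIP, ARRDC4 and ARRDC3 are shown with matches to motifs of the kinds that MondoA, NF-Y and FOXO factors bind. Not every window holds each motif, and binding was not measured. They were read from GRCh38 with GENCODE v44 starts, run 5′ to 3′ on the strand of the gene, and have matches to the searched motifs in capitals. TXNIP lies on the minus strand, and its window is chr1:145996580-145996879. The ARRDC4 window is chr15:97960403-97960702 on the plus strand, and that of ARRDC3 is chr5:91383318-91383617 on the minus strand.
TXNIP: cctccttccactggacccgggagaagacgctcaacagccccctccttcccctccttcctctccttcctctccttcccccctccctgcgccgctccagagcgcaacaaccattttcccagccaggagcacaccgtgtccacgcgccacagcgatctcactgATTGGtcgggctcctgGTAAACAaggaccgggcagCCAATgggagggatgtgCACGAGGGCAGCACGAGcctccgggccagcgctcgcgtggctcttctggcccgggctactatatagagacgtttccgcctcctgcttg
ARRDC4: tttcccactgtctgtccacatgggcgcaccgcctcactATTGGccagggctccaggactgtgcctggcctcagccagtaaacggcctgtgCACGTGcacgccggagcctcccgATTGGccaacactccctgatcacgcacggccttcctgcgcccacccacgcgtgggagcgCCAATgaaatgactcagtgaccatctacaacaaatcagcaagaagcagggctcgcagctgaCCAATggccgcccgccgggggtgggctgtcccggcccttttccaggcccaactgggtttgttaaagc
ARRDC3: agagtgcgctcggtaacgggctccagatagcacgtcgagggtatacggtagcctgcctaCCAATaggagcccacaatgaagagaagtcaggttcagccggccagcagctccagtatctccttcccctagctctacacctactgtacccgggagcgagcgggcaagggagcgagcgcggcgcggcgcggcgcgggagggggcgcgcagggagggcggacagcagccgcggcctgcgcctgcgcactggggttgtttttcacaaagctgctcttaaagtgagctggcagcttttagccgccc

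The motifs searched on both strands were a pair of CACGNG copies in the same orientation with 5 bases between them, the palindromic E box CACGTG, the NF-Y box CCAAT and the forkhead motif GTAAACA. The form of the pair was set with the TXNIP window in view. In the TXNIP window the pair stood 88 to 72 bases before the start, the forkhead motif began 124 bases before it, and CCAAT began 105 bases before it on the gene's strand and 140 bases before it on the other. Of 20033 protein-coding promoter windows of the same length, 0.105% held such a pair and 2.52% held GTAAACA. ARRDC4 had no such pair in its window, but 1 CACGTG, which began 210 bases before the start and which 8.89% of windows held. It also had 4 CCAAT copies, a number that 1.55% of windows reached. The ARRDC3 window and that of MLXIP, chr12:122078456-122078755 on the plus strand, each held only a single CCAAT, as 37.9% of windows held at least 1. No match among these overlapped another. These are matches of letters in human DNA, and mouse promoter sequence was not used here.

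In MS-5 cells, Txnip, Arrdc4 and Arrdc3 had higher means in Adh than in MS-5 cells alone, by 1.36-fold, 1.55-fold and 1.29-fold, while Mlxip had nearly the same mean in both. No member separated the groups fully, and for the first 3 genes replicate 1 of the MS-5 cells alone was as high as some Adh libraries. In these bulk libraries, fewer cells that carry a transcript and less of it per cell cannot be told apart.

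Txnip (ENSMUSG00000038393) lies at chr3:96557957-96561883 of GRCm38 on the plus strand. In MS-5 cells alone it had 79.0, 53.3, 61.6 and 54.1 CPM in replicates 1 to 4, and in Adh it had 99.3, 76.4, 77.3 and 85.5 CPM. The CPM values are scaled by TMM factors, which correct library sizes for composition. Of the 4 Adh libraries, 2 were above every library of MS-5 cells alone, and the other 2 fell just below replicate 1 of MS-5 cells alone. The means were 62.0 ± 11.96 CPM (SD, n = 4) and 84.6 ± 10.6 CPM (SD, n = 4), with a log2 fold change of 0.45 (SE 0.11), and 2.5% of the 12201 mouse genes tested had a higher log2 fold change. The gene Gm15441, annotated on the opposite strand, covers 606 bases or 19.4% of the Txnip exons, and had 0 to 9 counts per library. The library kit does not mark strand, so reads of the 2 genes cannot be told apart where they overlap. How reads in the shared bases were counted is not stated. If they were left out, the Txnip level would be understated here, also beside Arrdc4 and Arrdc3.

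Arrdc4 (ENSMUSG00000042659, chr7:68736995-68749241, minus strand) had the largest fold change of the 4 mouse genes. Its levels were 65.3, 43.99, 49.7 and 51.6 CPM in MS-5 cells alone and 90.3, 64.4, 85.8 and 87.5 CPM in Adh. Replicate 2 of Adh lay within the range of MS-5 cells alone, and the other Adh libraries lay above it. The means of 52.7 ± 9.02 and 82.0 ± 11.9 CPM (SD, n = 4 each) gave a log2 fold change of 0.64 (SE 0.12), which 1.07% of genes tested exceeded. Per length of exon, Arrdc4 stood at 62.4 to 73.8% of Txnip in MS-5 cells alone and at 65.1 to 85.9% in Adh, so that Txnip was the more abundant in all 8 libraries.

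Arrdc3 (ENSMUSG00000074794, chr13:80883384-80896042, plus strand) was much lower, at 15.7, 10.9, 13.2 and 8.69 CPM in MS-5 cells alone and 17.7, 15.1, 14.5 and 15.6 CPM in Adh. Only replicate 1 of Adh was above all libraries of MS-5 cells alone. The log2 fold change was 0.37 (SE 0.15), from 12.1 ± 3.02 to 15.7 ± 1.39 CPM (SD, n = 4 each), and 3.77% of genes had a higher one. Arrdc3 stayed at 8.01 to 10.7% of the Txnip level per length in all 8 libraries.

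Mlxip (ENSMUSG00000038342, chr5:123394798-123457932, plus strand), whose product drives the first 2 of these genes, had 78.0, 78.1, 70.8 and 75.9 CPM in MS-5 cells alone and 77.3, 76.8, 67.5 and 64.7 CPM in Adh. The ranges overlapped, with 2 Adh libraries below all those of MS-5 cells alone. The log2 fold change was -0.08 (SE 0.07), with means of 75.7 ± 3.45 and 71.6 ± 6.41 CPM (SD, n = 4 each). Per length, the order in both groups was Txnip, Arrdc4, Mlxip and Arrdc3, with means of 19.9, 13.0, 9.09 and 1.93 RPKM in MS-5 cells alone and 27.1, 20.3, 8.60 and 2.51 RPKM in Adh. RPKM here divides the scaled CPM by the kilobases of all annotated exons, 8326 bases for Mlxip and 3123 for Txnip. The order depends on these lengths, and in CPM Mlxip had the highest mean of the 4 genes in MS-5 cells alone.

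**Figure D1:**
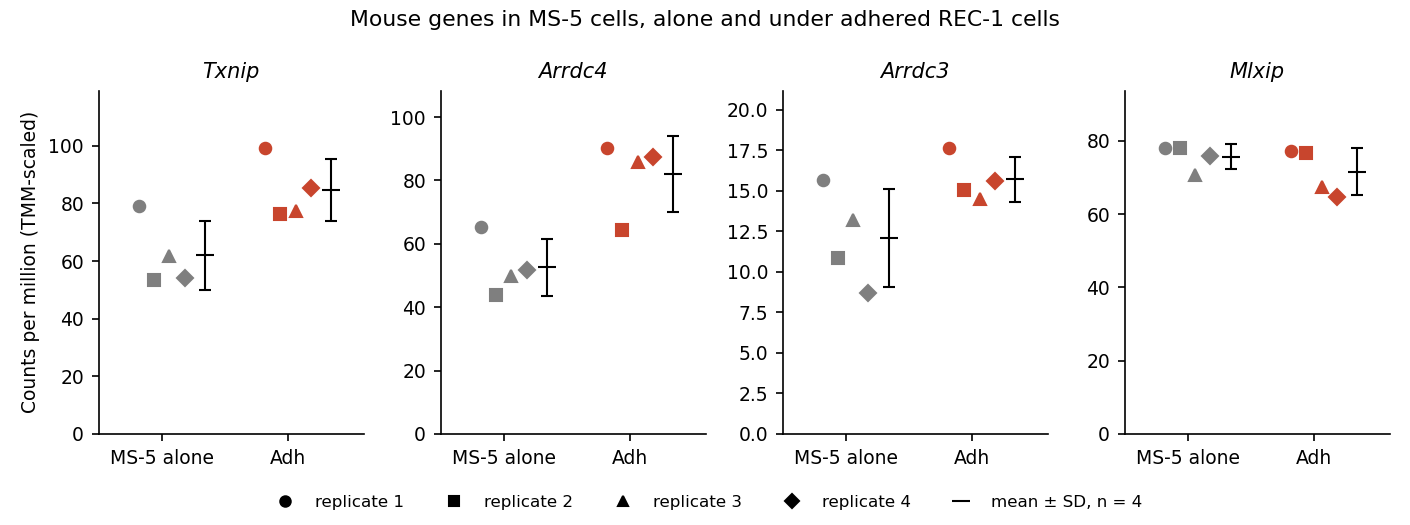
Levels of the 4 mouse genes in MS-5 cells alone (grey) and in Adh (red), in TMM-scaled CPM on axes that start at 0; each point is a library, its shape gives the replicate number, and the bar is the mean ± SD of 4 libraries. Replicate 1 of MS-5 cells alone is the highest grey point for Txnip, Arrdc4 and Arrdc3 and stands at 79.0, 65.3 and 15.7 CPM.

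Within MS-5 cells Txnip, Arrdc4 and Arrdc3, which were chosen together, shared part of their order from library to library. Replicate 1 was the highest of its group for Txnip, Arrdc4 and Arrdc3, both in MS-5 cells alone and in Adh. This was not particular to them. Mlxip was also highest in replicate 1 of Adh, and Cxcl12 in replicate 1 of both groups. Over all mouse genes tested, the deviations of replicate 1 from the group mean had r = 0.286 between the groups. Over the 8 libraries the Pearson r of log2 CPM with Txnip was 0.92 for Arrdc3, 0.92 for Arrdc4 and -0.22 for Mlxip, which placed Arrdc3 at rank 35, Arrdc4 at rank 40 and Mlxip at rank 5508 of 8816 genes with a mean of at least 10 CPM. Both the difference between groups and the spread within groups enter these r values. Without replicate 1 of either group the log2 fold changes were 0.50 for Txnip, 0.71 for Arrdc4 and 0.45 for Arrdc3. The genes most like Txnip were Ccdc80, Cxcl12, Pxylp1, Spp1 and Matn2 (all with r of 0.973 or more). The least like were Nip7 and Hoxc13 (-0.99 each) and Shb (-0.97).

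**Figure D2:**
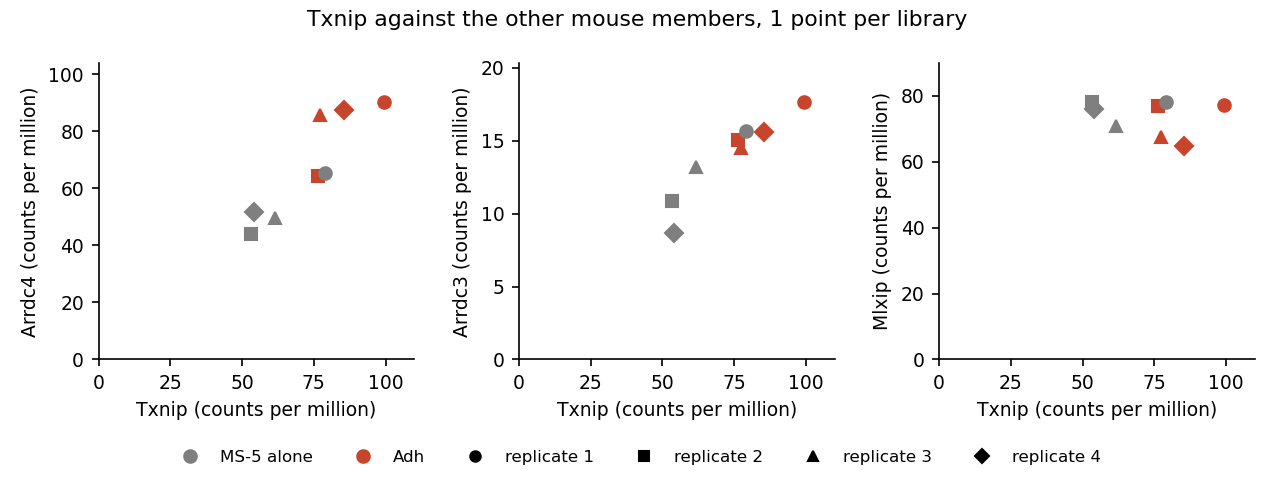
Txnip (horizontal axis) against Arrdc4, Arrdc3 and Mlxip (vertical axes), all in TMM-scaled CPM, with 1 point per library, grey for MS-5 cells alone and red for Adh; shapes give the replicate number. Arrdc4 and Arrdc3 climb with Txnip, r = 0.92 for each, and Mlxip stays between 64.7 and 78.1 CPM.

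In REC-1 cells, TXNIP was higher in Susp than in Sep by 1.23-fold, with Adh between them, and MLXIP was lower in Adh than in both other groups, at 0.78 times Sep and 0.836 times Susp. ARRDC3 had overlapping levels in all 3 groups, and no count was assigned to ARRDC4 in any library. The comparisons share libraries, since Sep, Susp and Adh each enter 2 of them.

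TXNIP (ENSG00000265972, chr1:145992435-145996579 of GRCh38, minus strand) had 82.4, 69.0, 65.5 and 61.7 CPM in Sep. It had 86.3, 91.1, 82.6 and 83.7 CPM in Susp and 78.0, 87.8, 73.8 and 76.5 CPM in Adh. The lowest Susp library was above the highest Sep library by a small margin, 82.6 against 82.4 CPM, and only replicate 2 of Adh was above all of Sep. The means were 69.7 ± 9.02, 85.9 ± 3.78 and 79.0 ± 6.13 CPM (SD, n = 4 each) in Sep, Susp and Adh. The log2 fold changes were 0.30 (SE 0.10) for Susp over Sep, 0.18 (SE 0.10) for Adh over Sep and -0.12 (SE 0.10) for Adh over Susp, and 13.1% of the 12861 human genes tested exceeded the first. Without replicate 2 of Susp, which had the highest TXNIP level of all, the values against Susp were 0.26 and -0.08. In Susp against Sep, TXNIP was thus 1 of 3 tested members whose groups did not overlap, where 11.3% of all genes tested did not overlap.

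ARRDC4 (ENSG00000140450, chr15:97960703-97973833, plus strand) had 0 counts in each of the 12 REC-1 libraries. With 153672774 human counts in all, a count of 0 allows up to 0.0195 CPM over the libraries together, and 0.14 to 0.387 CPM in single libraries, by 3 counts and for counting error only. These limits take counts as independent. They would be higher if the mates of a read pair were counted apart, as the counts make likely. Mouse Arrdc4 had 3059, 1891, 2985 and 2754 counts in the same 4 Adh libraries. For TXNIP and Txnip the Adh sums were 3120 human and 10987 mouse counts, for ARRDC3 and Arrdc3 967 and 2035, and for MLXIP and Mlxip 1967 and 9255. Only 0.9% of the 25-base words of the longest Arrdc4 transcript occur in a human ARRDC4 transcript, against 2.9% for Txnip, 13.0% for Arrdc3 and 0.9% for Mlxip. Zero counts in every REC-1 library were also found for 4370 of 19961 protein-coding genes, or 21.9%. On chromosome 15, the protein-coding gene before ARRDC4, NR2F2, also had 0 counts, whereas IGF1R, the next one after it, had 3775 and MCTP2 had 1988 over the 12 libraries.

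ARRDC3 (ENSG00000113369, chr5:91368631-91383317, minus strand) had 26.9, 20.8, 21.1 and 25.3 CPM in Sep, 24.4, 22.1, 19.5 and 21.9 CPM in Susp and 24.7, 24.4, 24.4 and 25.2 CPM in Adh. The 3 ranges overlapped, and the Adh libraries were the closest to each other. The means were 23.5 ± 3.06, 22.0 ± 2.02 and 24.6 ± 0.36 CPM (SD, n = 4 each), and the log2 fold changes lay between -0.10 (SE 0.12, Susp over Sep) and 0.17 (SE 0.12, Adh over Susp). ARRDC3-AS1 on the other strand shares 145 exon bases, 2.9% of ARRDC3, and had 1 to 9 counts per library. ARRDC3 did not follow TXNIP over the 12 REC-1 libraries (Pearson r = 0.023, rank 4018 of 8492 genes).

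MLXIP (ENSG00000175727, chr12:122078756-122147344, plus strand) had 54.3, 72.5, 65.7 and 65.2 CPM in Sep, 61.1, 58.1, 62.4 and 58.7 CPM in Susp, and 48.0, 52.7, 49.1 and 51.3 CPM in Adh. Every Adh library was below every Sep and Susp library. The means were 64.4 ± 7.50, 60.1 ± 2.03 and 50.3 ± 2.13 CPM (SD, n = 4 each), with log2 fold changes of -0.36 (SE 0.10) for Adh over Sep, -0.26 (SE 0.10) for Adh over Susp and -0.10 (SE 0.09) for Susp over Sep. MLXIP was 1 of 3 tested members whose groups did not overlap in each of the first 2 comparisons, beside 15.7% of all genes for Adh against Sep and 11.4% for Adh against Susp. In MS-5 cells the number was 0 of 4 members, beside 6.74% of all genes. Per length, TXNIP was the highest of the 3 detected genes in each group, at 19.3, 23.8 and 21.9 RPKM in Sep, Susp and Adh. ARRDC3 and MLXIP were at 4.72 and 4.65 RPKM in Sep, which is less apart than their spread, and at 4.94 and 3.62 RPKM in Adh. These values divide by all annotated exon bases, 4985 for ARRDC3 and 13868 for MLXIP. In CPM, MLXIP had the higher mean in each group, so the order of these genes per length depends on the lengths taken.

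**Figure D3:**
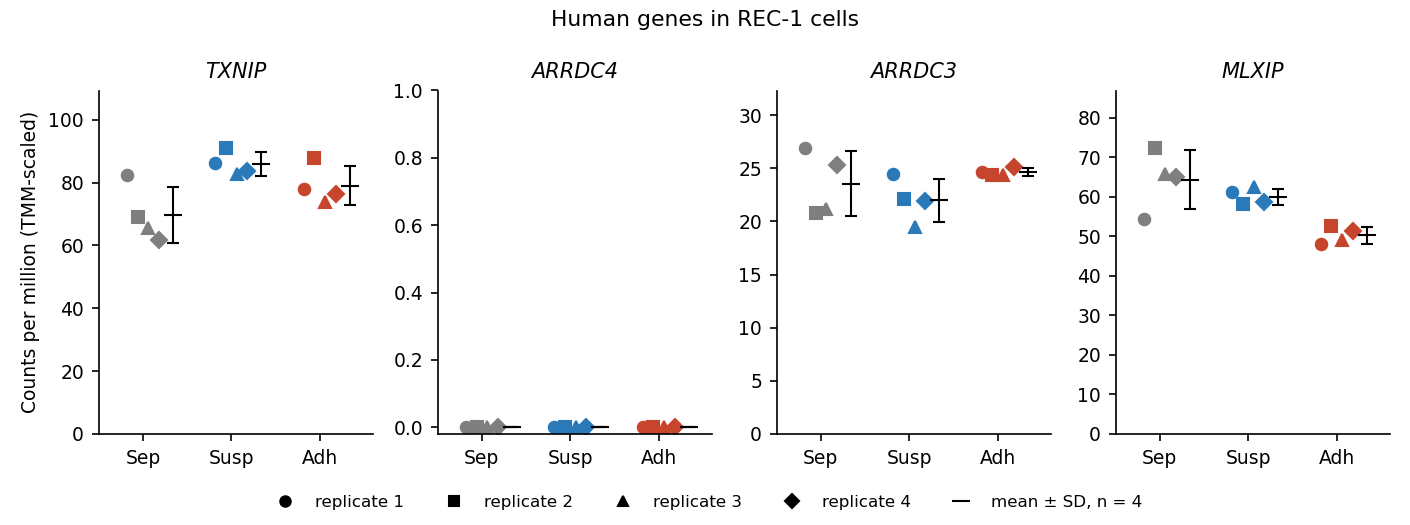
Levels of the 4 human genes in REC-1 cells of Sep (grey), Susp (blue) and Adh (red), in TMM-scaled CPM; each point is a library, its shape gives the replicate number, and the bar is the mean ± SD of 4 libraries. TXNIP in Susp (82.6 to 91.1 CPM) sits just above Sep, MLXIP in Adh (48.0 to 52.7 CPM) sits below the other groups, and ARRDC4 is at 0 throughout.

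**Figure D4:**
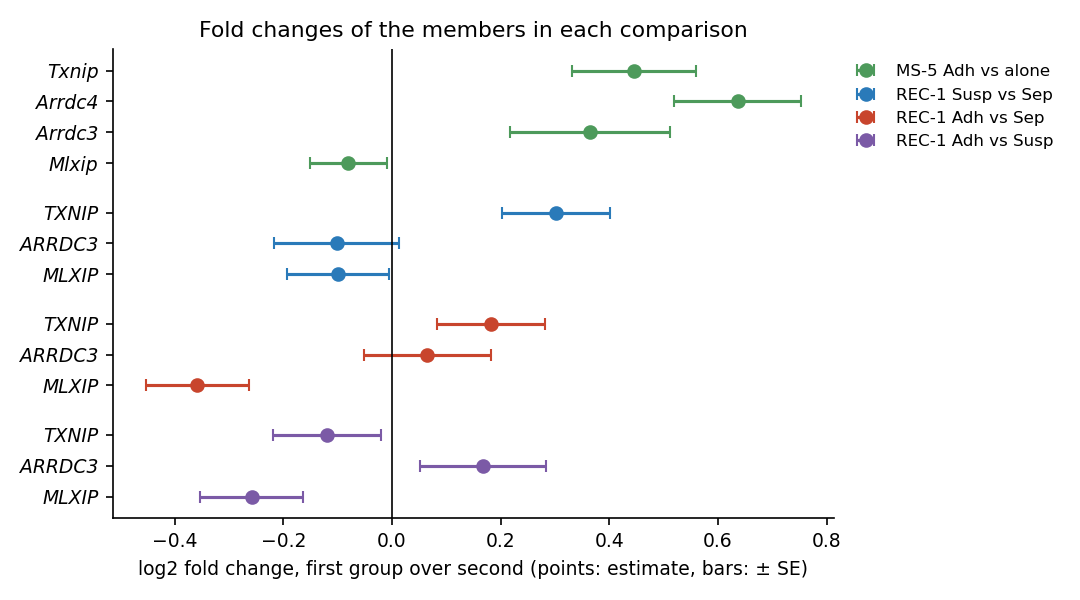
Log2 fold changes of the members in the 4 comparisons, with first group over second; points are estimates and bars ± SE, and ARRDC4 is left out because it had no count. Arrdc4, Txnip and Arrdc3 in MS-5 cells, at 0.64, 0.45 and 0.37, lie to the right of all REC-1 values, and MLXIP in Adh over Sep lies farthest to the left, at -0.36.

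The genes whose levels followed TXNIP most closely over the 12 REC-1 libraries were TXNDC11 (r = 0.94), ENPP2 (0.91), POLE3 (0.90), CKS1B (0.89) and BBOX1 (0.89). The lowest r values were those of ZFP36L1 (-0.91), C17orf51 (-0.84) and SGK223 (-0.83), and that of MLXIP was -0.41. The libraries share their 3 groups, so group differences enter these values too.

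The other genes of the pathway were tested as called genes, meaning a Benjamini-Hochberg adjusted p of at most 0.05 in edgeR's quasi-likelihood test over all genes, together with a change of 1.5-fold or more. In MS-5 cells 0 of 90 tested genes in the lists were called, beside 0.205% of all genes. At an unadjusted p under 0.05 in the same test there were 20 of the 90, a larger share than the 11.3% of all genes. In REC-1 cells the numbers were 0 of 86 for Susp against Sep, beside 0.731% of all genes, 0 of 86 for Adh against Sep, beside 2.4%, and 1 of 86 for Adh against Susp, beside 0.778%. At an unadjusted p under 0.05 there were 26, 27 and 13 of the 86, where 16.7, 20.2 and 18% of all genes were. The share in the lists was thus larger for Susp and Adh against Sep and smaller for Adh against Susp. The lists were chosen with earlier results of these data known, and these differences in share were not tested. The fit behind these numbers took the libraries as unpaired. With the replicate number as a block, 1 pathway gene was called for Adh against Sep and 3 for Adh against Susp, beside 384 and 281 of all 12861 genes. For Susp against Sep and in MS-5 cells the block gave 0, beside 175 of 12861 and 45 of 12201 genes.

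Other alpha-arrestins, ARRDC1, ARRDC2 and ARRDC5, had 2 tested members, since ARRDC5 had no counts in REC-1 cells. ARRDC2, a relative of ARRDC3 and TXNIP, fell in Adh against Susp. It had 30.3, 41.0, 32.4 and 29.1 CPM in Susp, 21.4, 22.5, 17.2 and 19.1 CPM in Adh and 27.8, 29.9, 32.8 and 27.8 CPM in Sep. The Adh libraries were below all others, with a log2 fold change of -0.72 (SE 0.13) against Susp and an adjusted p of 0.0109 by edgeR's quasi-likelihood test. Against Sep the log2 fold change was -0.55 (adjusted p = 0.0287 by the same test), under the fold minimum. The call against Susp was lost without replicate 3 (adjusted p = 0.177), without replicate 4 (0.0858) and after all libraries were thinned to the depth of the smallest (0.0595), and it held without replicate 2 of Susp, at -0.59 (0.017). ARRDC1 had a log2 fold change of 0.23 in Susp over Sep (adjusted p = 0.55), and Arrdc2 had 0.21 in MS-5 cells (adjusted p = 0.626), by edgeR. Without replicate 2 of Susp, ARRDC1 had 0.05 (adjusted p = 0.959 by edgeR).

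The partners and rivals of MondoA in the MLX and MAX network had 9 of 11 genes tested in each species and no called gene in the 4 comparisons as fitted here. MLXIPL, the paralog of MLXIP known as ChREBP in liver, had 2 counts in all REC-1 libraries together. MLX, the partner MondoA needs to bind DNA, had 33.7, 36.0 and 35.6 CPM in Sep, Susp and Adh, and Mlx had 27.3 CPM in MS-5 cells alone and 26.0 CPM in Adh. The largest values were those of the MYC antagonist MXD3, with a log2 fold change of -0.93 in Adh over Susp (adjusted p = 0.114 by edgeR), and -0.49 in Adh over Sep (0.365). The first of these was called by DESeq2 (adjusted p = 0.0355), with no filter on low counts (0.000111) and with the replicate number as a block (0.00913). MXD4, a related antagonist, had 0.62 in Susp over Sep (adjusted p = 0.226 by edgeR), and Mxd3 had 0.32 in MS-5 cells (0.297). Without replicate 2 of Susp, MXD3 had -0.72 in Adh over Susp (adjusted p = 0.176 by edgeR). MXD4 then had 0.47 in Susp over Sep (0.489). MYC, which represses TXNIP, had log2 fold changes of 0.18, 0.17 and -0.01 in the 3 REC-1 comparisons, and Myc had -0.14 in MS-5 cells, none of which passed the test.

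Among carbohydrate response targets, lipid and sugar enzymes that MondoA or ChREBP are known to induce, none was called in 13 tested mouse or 14 tested human genes. The median log2 fold change of the list was 0.02 in MS-5 cells, beside a median of -0.002 over all genes, and 0.054, 0.037 and 0.053 in the REC-1 comparisons, in the order Susp over Sep, Adh over Sep and Adh over Susp. Glucose uptake and glycolysis genes had a median of 0.02 over 22 genes in MS-5 cells, with 13 above 0. In REC-1 cells their median was 0.217 over 24 genes in Susp over Sep, with 21 above 0 and 12 at an unadjusted p under 0.05, and 0.173 in Adh over Sep, with 19 above 0 and 12 at an unadjusted p under 0.05, but only 0.016 in Adh over Susp. Over all genes 16.7 and 20.2% were at that p in the first 2 of these comparisons. Replicate 2 of Susp was the highest Susp library for TPI1 (468 CPM, the others 324 to 368), ALDOA (1124, the others 836 to 986) and LDHB (2402, the others 1822 to 1918), and without it the median in Susp over Sep was 0.137, with 21 still above 0. The 7 B cell markers had a median of 0.274 in the same comparison and 0.132 without that library, and the part of the library in these shifts was not tested further. The thioredoxin and peroxiredoxin genes had medians of 0.198, 0.181 and 0.043 in REC-1 cells, the first being 0.084 and the last 0.107 without replicate 2 of Susp, and 0 in MS-5 cells.

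Several genes of these lists passed the adjusted p but not the fold minimum, and they are named after their values were seen. In MS-5 cells Srxn1, which reactivates peroxiredoxins, fell by 0.33 on the log2 scale (adjusted p = 0.00168 by edgeR), and Txnrd1, the reductase of thioredoxin, fell by 0.33 (0.0147). Scd2, a fatty acid desaturase, rose by 0.39 (adjusted p = 0.00922 by edgeR). In REC-1 cells the glycolytic enzyme GAPDH rose by 0.37 in Susp over Sep (adjusted p = 0.0374 by edgeR) and by 0.33 in Adh over Sep (0.0318), and PRDX2, a peroxiredoxin, rose by 0.47 in Susp over Sep (0.0485). Without replicate 2 of Susp, the Susp over Sep values were 0.305 for GAPDH (adjusted p = 0.0256 by edgeR) and 0.35 for PRDX2 (0.0386). In Adh over Sep, SCD rose by 0.56 (adjusted p = 0.0211 by edgeR), LDHB by 0.37 (0.0271) and LDHA by 0.29 (0.0363), the last 2 being lactate dehydrogenase subunits. Each of these passes was lost when some single replicate number was left out. Without replicate 3 the adjusted p was 0.0673 for Srxn1, 0.217 for Txnrd1 and 0.15 for Scd2. It was 0.4 and 0.207 for GAPDH in the order above, 0.353 for PRDX2, 0.154 for SCD, 0.223 for LDHB and 0.316 for LDHA, all by edgeR. Leaving out replicate 4 also lost all the REC-1 passes, with adjusted p from 0.129 to 0.282.

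AMPK subunits, NEDD4 family ligases, FOXO and glucocorticoid responsive genes and inflammasome genes had no called gene in any of the 4 comparisons as fitted here. The pore-forming protein gene GSDMD of the last list, named after its values were seen, was called in Adh over Susp by DESeq2 (log2 fold change -0.74, adjusted p = 0.0125), with no filter on low counts (4.31e-06) and with the replicate number as a block (0.00227). Its highest Susp level was in replicate 2, at 64.7 CPM, where the other Susp libraries had 37.2 to 46.5 CPM. Leaving that library out of the edgeR fit gave no call for GSDMD either. The medians of these lists in MS-5 cells were 0.049, -0.04, 0.035 and -0.122, and in REC-1 cells they ranged from -0.123, for the ligases in Susp over Sep, to 0.149, for the FOXO and glucocorticoid list in Adh over Sep.

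**Figure D5:**
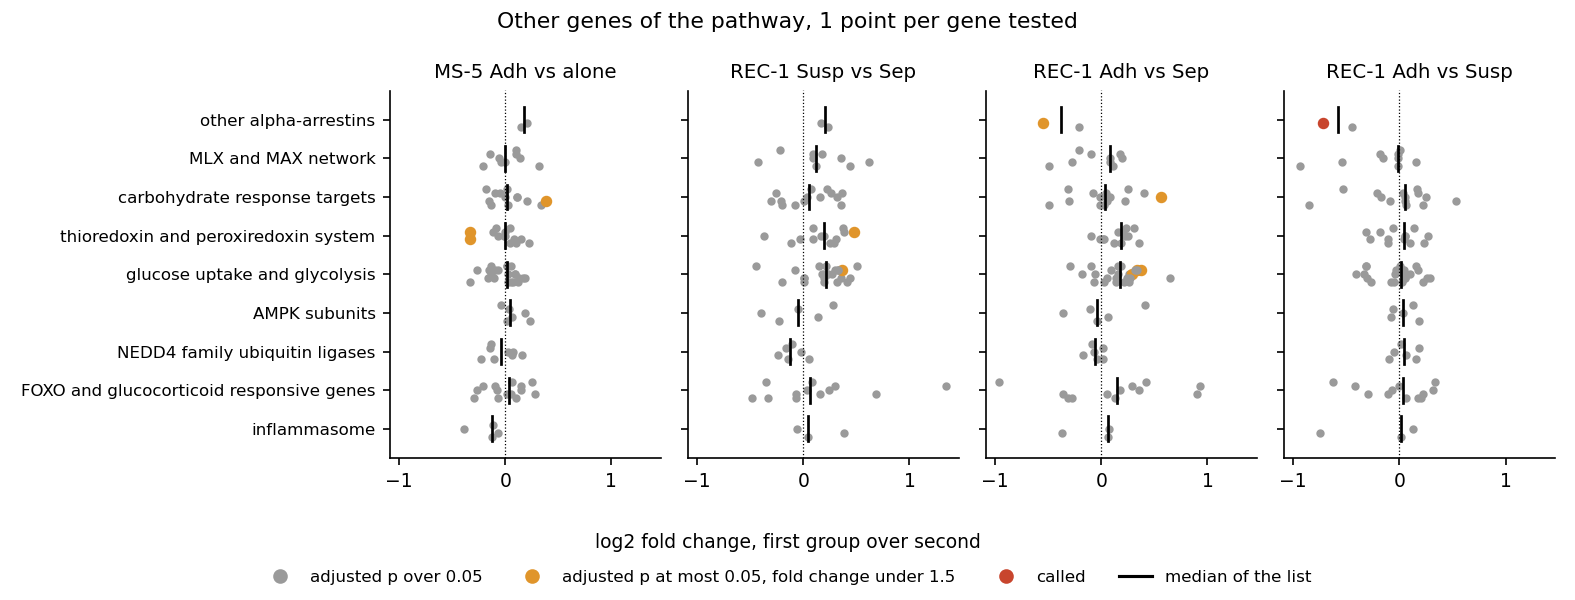
Log2 fold changes of the other pathway genes in the 4 comparisons, 1 point per gene tested and 1 row per list, with the median of each list as a black line; red marks a called gene, orange a gene past the adjusted p alone and grey all others. The single red point is ARRDC2 in Adh over Susp, at -0.72, and the glycolysis row of Susp over Sep lies mostly right of 0, with a median of 0.217.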

How the data were processed

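PolyA RNA of REC-1 and MS-5 cells, in 16 libraries of 4 groups, had been sequenced as read pairs. The authors divided reads by species with Xenome, aligned them with STAR 2.5.1b to GRCh38 or GRCm38, keeping reads with 1 alignment, and counted them per gene with featureCounts of Subread 1.5.2. The deposited values are raw counts per gene in 1 table per species. In every library 2.11 to 3.61 times as many genes had a count of 2 as a count of 1, so the counts appear to be reads rather than fragments, and mates may be counted apart. Another 20 columns of the tables belong to no sample used here and were left out.

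From the counts, edgeR 4.0.16 in R 4.3.3 was run with TMM factors, its filter on low counts and the quasi-likelihood test, 1 model for the 12 REC-1 libraries and 1 for the 8 mouse libraries. Genes were called at a Benjamini-Hochberg adjusted p of at most 0.05 over all genes tested and a fold change of at least 1.5. Tested on simulated data, the fit called 199 of 200 changed genes among 12861 for Adh against Susp and 200 of 200 among 12201 for MS-5 cells, with 0 false calls. This checks that the fit runs as meant. It does not measure the power for changes of the size seen in these data, so a gene that was not called may still have changed. Exon lengths came from GENCODE v44 and vM21, and promoter windows of 300 bases from GRCh38 with pysam 0.24.0.

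The members and the pathway lists were chosen with earlier results of these data known. The text names the 8 members, each called gene of a pathway list (at most 6 per list), and otherwise the largest fold change among the other alpha-arrestins and in the MLX and MAX network. Further genes of the lists are named outside this rule, after their values were seen. They passed the adjusted p alone, were called in an alternative, showed how Susp replicate 2 stood, or are partners, relatives or regulators of the members. The text also names the 5 genes with the highest and the 3 with the lowest Pearson r with Txnip or TXNIP. Depth limits low genes most in the human part of Adh. Alternatives were a replicate block, DESeq2 1.42.0, upper-quartile factors, other filters on low counts, thinned counts, no fold minimum, each replicate left out, Susp replicate 2 left out, REC-1 models of 2 groups, and removal of mitochondrial genes.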

Additional observations from a re-analysis of the deposited data

How the results depend on the processing

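All 174 alternative values of the members' log2 fold changes kept their sign and stayed within 1 SD of the spread between replicates. Those without the fold minimum could not move, since that setting leaves the estimates as they are, and the other settings reuse most of the same libraries. In MS-5 cells they ranged from 0.38 to 0.50 for Txnip, 0.59 to 0.71 for Arrdc4, 0.24 to 0.45 for Arrdc3 and -0.10 to -0.03 for Mlxip. In REC-1 cells they ranged from 0.26 to 0.38 for TXNIP in Susp over Sep and from -0.41 to -0.31 and -0.28 to -0.22 for MLXIP in Adh over Sep and Adh over Susp. Smaller values moved by over 1.5 times, from 0.18 to 0.28 for TXNIP in Adh over Sep (without replicate 1), from -0.12 to -0.08 for TXNIP in Adh over Susp (without Susp replicate 2), and within -0.19 to -0.03 for MLXIP and -0.17 to -0.03 for ARRDC3 in Susp over Sep and 0.02 to 0.14 for ARRDC3 in Adh over Sep. The numbers of pathway genes called moved more. Without the fold minimum they were 3 in MS-5 cells (main value 0), 2 for Susp against Sep (0) and 5 for Adh against Sep (0). With no filter on low counts they were 1 for Susp against Sep (MXD4) and 3 for Adh against Susp, where the main value was 1. DESeq2 gave 1 for Adh against Sep (ALDOC) and 3 for Adh against Susp (ARRDC2, MXD3 and GSDMD). Leaving out Susp replicate 2 gave 1 for Adh against Sep, and thinned counts gave 0 for Adh against Susp. Leaving out single replicates gave 0 to 2 for Adh against Sep, where SCD was called without replicate 1 and SCD and ARRDC2 without replicate 2, and 0 to 1 for Adh against Susp, lost without replicate 3 or replicate 4. The cause was not tested.

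Same-numbered libraries had correlated deviations over 0.1 for 1 to 3 of the 4 numbers, short of the 4 required here to treat them as pairs. The sample codes group libraries by number, but the sources used here do not state that a number marks 1 shared experiment. The study took Susp and Adh cells as fractions within its cocultures, so same-numbered Susp and Adh libraries may come from the same coculture. The rule on deviations cannot show that they do not, and the values with the replicate block are given for that case. With the replicate block, 1 pathway gene was called for Adh against Sep (ALDOC), 3 for Adh against Susp (ARRDC2, MXD3 and GSDMD), 0 for Susp against Sep and 0 in MS-5 cells. The members' values with the block were 0.46 for Txnip, 0.64 for Arrdc4 and 0.38 for Arrdc3. Over all genes, the block gave 175, 384, 281 and 45 calls for Susp against Sep, Adh against Sep, Adh against Susp and MS-5 cells, and DESeq2 gave 172, 527, 282 and 38, beside 94, 309, 100 and 25. With no filter on low counts they were 217, 503, 341 and 45. Leaving out 1 replicate gave 24 to 81, 92 to 304, 25 to 78 and 7 to 27 calls, lowest without replicate 3 for all but Adh against Sep, where it was lowest without replicate 4. No fold minimum gave 94 calls in MS-5 cells, and leaving out Susp replicate 2 gave 519 for Adh against Sep.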
